A study of Sparus aurata with 8 samples.

Results

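The transcripts described here differed widely among pools of fish fed a control diet and little among pools of fish whose feed held spray-dried porcine plasma (SDPP), in the gut of gilthead sea bream (Sparus aurata). Expression is given throughout as log2 relative signal, the log2 of a probe's processed signal minus the log2 of that array's 75th percentile, so that a difference of 1 is 2-fold and a difference of 2 is 4-fold. A transcript was taken if its highest and lowest control pools were at least 2 apart on this scale and its highest and lowest SDPP pools less than 1.5 apart. It also had to be well above background, the scanner software's own flag, on all 4 arrays of at least 1 diet. These limits gave 134 members among 6754 transcripts that passed the background filter and 15156 sequence names on the array. The ranges chose the members, so they are given as values and no test of them was made.

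Of the 8 RNA pools measured, 4 belonged to the control diet and 4 to the SDPP diet. Fish of 10.6 g were fed either diet for 95 days, in 4 tanks per diet with 50 fish in each, and 10 fish per tank were sampled. Per the labels, control fish reached 82.7 ± 3.2 g and SDPP fish 88.2 ± 1.6 g. The pools' titles and the dissection text name the gut, from which a piece of anterior intestine was taken, but skin is named in the tissue field and in the text on RNA extraction. This conflict could not be settled, because no probe carried a gene name by which a tissue marker could be looked up. The labels give neither the number of fish in a pool nor the tank it came from, so every p-value rests on the spread among pools, which may be technical. Age, sex and genotype of the fish are not given in the sources used here.

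The anterior intestine of fish digests and absorbs nutrients, and it also carries immune cells that meet feed and microbes. Spray-dried plasma is a protein ingredient made from the blood of slaughtered pigs, and it holds immunoglobulins, albumin and other plasma proteins. A pool averages the RNA of its fish, so a transcript that differs between pools can differ in all fish of a pool or in a few of them. In pooled tissue, fewer cells of a type and less RNA per cell cannot be told apart.

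A search of the 32006 genes in the species' RefSeq table for the 15156 sequence names gave 0 matches. The members are therefore called by the sequence names of the array design, and their functions and genome positions are not given here.

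The arrays differed in depth. On control pools 1 to 4, 18951, 24803, 30641 and 21806 non-control spots were well above background, and on SDPP pools 1 to 4 the counts were 24369, 15488, 17817 and 22753. The groups overlapped (two-sided exact permutation p = 0.257 for the difference in means). The 75th percentile of signal, by which each array was scaled, ran from 2604 to 3110 on control arrays and from 2279 to 2625 on SDPP arrays (two-sided exact permutation p = 0.0571). Of the members, 117, 125, 133 and 127 were well above background on control arrays 1 to 4 and 131, 99, 106 and 130 on SDPP arrays 1 to 4. All 8 arrays measured 68 of the 134 members above background. Precision is limited by the number of arrays.

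The range over control pools had a median of 2.65 among the members, with quartiles at 2.22 and 3.40 and extremes at 2.01 and 10.9. Their range over SDPP pools had a median of 0.645 and ran from 0.0994 to 1.497. Over all 6754 transcripts the medians were 0.409 for control pools and 0.580 for SDPP pools. The control range was smaller than the SDPP range in 4268 of the 6620 transcripts that were not members (64.5%). A control range of at least 2 was reached by 183 transcripts, 2.71% of those tested, whereas an SDPP range of at least 2 was reached by 473, or 7%. The opposite set, with an SDPP range of at least 2 and a control range under 1.5, held 418 transcripts. Both ranges reached 2 in 34 transcripts. An SDPP range under 1.5 was itself common, at 87.9% of all transcripts tested.

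**Figure D1:**
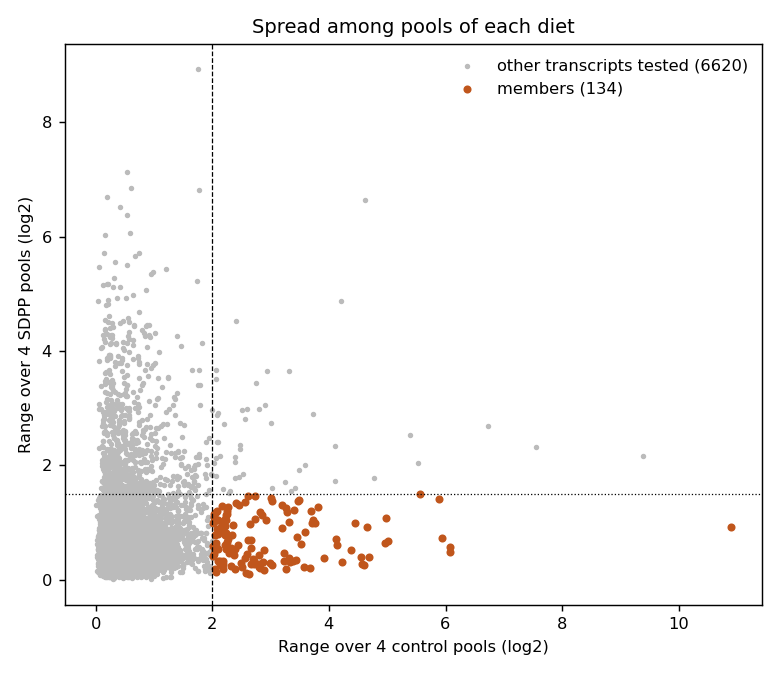
Range over the 4 control pools (x axis, log2) against the range over the 4 SDPP pools (y axis, log2) for each of 6754 transcripts tested, with the 134 members in orange and the limits of 2 and 1.5 as lines. The members fill the lower right corner, the 418 transcripts of the opposite set lie along the y axis, and 34 transcripts exceed 2 on both axes.

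Transcripts on either side of a limit had nearly equal ranges. The member nearest inside the control limit, cDN10P0003I02.F.ab1, had a control range of 2.01, and the transcript nearest outside it, Seabream_2006-01-03-CL3106Contig1, had 2.00. At the SDPP limit, the member cDN11P0005P21.F.ab1 had an SDPP range of 1.497 and the excluded Contig2500 had 1.51.

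The 68 members well above background on all 8 arrays had a median control range of 2.64 and a median SDPP range of 0.528. For the rest, part of the range can come from signal not well above background, which differed between arrays. Of other probes well above background on 0 arrays, 1 of Contig3273 had -4.01, -5.30, -6.47 and -4.73 in control pools 1 to 4. Its control range was 2.46, whereas that of 1 such probe of SCT750_B06_T3_JP5_2_B6_046.ab1 was 1.00. The lowest control value came from an array where the member was not well above background in 24 of the 134 cases (17.9%). Over all transcripts tested this held for 114 of 6754 (1.69%). All 4 control arrays were well above background for 108 members (80.6%), against 98.1% of all transcripts.

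Control pools 1 and 2 were most often the extremes. Pool 1 was the highest control pool for 89 members, pool 3 for 28, pool 2 for 14 and pool 4 for 3. Pool 2 was the lowest for 86 members, pool 3 for 23, pool 1 for 20 and pool 4 for 5. Over all 6754 transcripts these positions were spread more evenly, with pool 1 highest in 30.7% and pool 2 lowest in 27.6%. The most frequent order among the members, pool 1 highest and pool 2 lowest, held for 68 members (50.7%) and for 1043 of all transcripts (15.4%). It held for 36 of the 68 members measured on all 8 arrays. The reverse order, pool 2 highest and pool 1 lowest, held for 10 members (7.46%) and for 1363 of all transcripts (20.2%). Over all transcripts the reverse order was the most frequent.

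**Figure D2:**
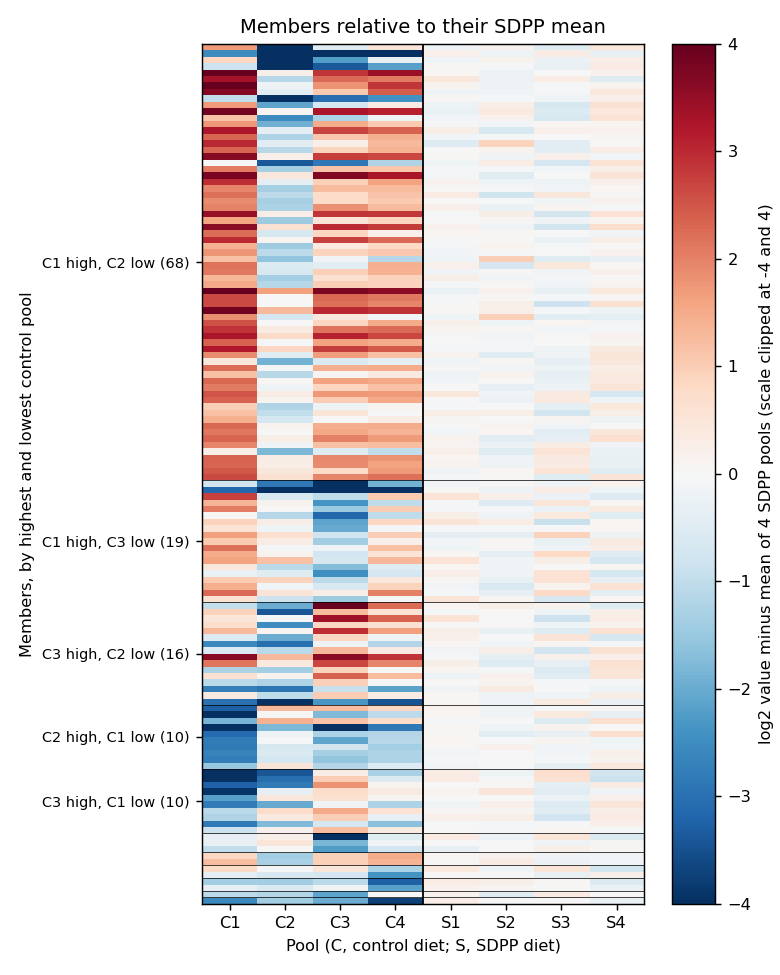
Log2 relative signal of the 134 members in each control (C) and SDPP (S) pool, minus the member's SDPP mean, as colour clipped at -4 and 4, with members grouped by their highest and lowest control pool. In the group of 68 with C1 highest and C2 lowest, C1 is mostly red, C2 pale or blue and C3 and C4 between them, while the 4 SDPP columns stay pale by the rule of selection.

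The remaining orders were smaller. Pool 1 was highest and pool 3 lowest in 19 members, 13 of which had all SDPP pools inside the control range. Pool 3 was highest and pool 2 lowest in 16, and pool 3 was highest and pool 1 lowest in 10. The preference for pool 2 as the low pool was seen less in transcripts that varied on both diets. Among the 49 transcripts with a control range of at least 2 and an SDPP range of 1.5 or more, pool 1 was highest in 37 and pool 2 lowest in 22. This difference in share was not tested, since the control ranges chose both sets.

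The control values of a member were sorted and split at the widest gap, which always leaves either 1 pool or 2 pools on a side. This left 1 low pool in 98 members, 1 high pool in 20 and 2 pools on each side in 16. Over all transcripts tested the shares were 40.2%, 39.4% and 20.4%, so low pools were the more frequent ones among the members, whose control values had been used to choose them. The single low pool was control pool 2 in 65 members, pool 1 in 14, pool 3 in 14 and pool 4 in 5. The single high pool was pool 1 in 12, pool 3 in 5, pool 2 in 2 and pool 4 in 1. For the 65 members with control pool 2 alone low, the mean of the other 3 pools exceeded it by a median of 2.28, and the other 3 pools themselves spanned a median of 0.820. Without control pool 2, 65 transcripts met the limits, 58 of them among the 134. Without control pool 1 the limits were met by 82, of which 75 were members.

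Control pool 4 lay near the average of the other 3 control pools, and it was neither the highest nor the lowest for 126 of the 134 members (94.0%, against 76.2% of all transcripts). Its value departed from the average of pools 1 to 3, taken on the linear scale, by a median absolute log2 difference of 0.116 in the members. The same departure was 1.27 for control pool 1, 1.81 for pool 2 and 0.765 for pool 3, each against its own other 3 pools. Control pool 4 lay within 0.5 of that average in 116 members, pool 1 in 11, pool 2 in 19 and pool 3 in 50. On the SDPP diet the departures were 0.152, 0.202, 0.368 and 0.348 for pools 1 to 4. Over all transcripts those of SDPP pools 1 to 4 were similar, at 0.146, 0.168, 0.313 and 0.346. Over all transcripts control pool 4 was again closest, at 0.0837 against 0.208, 0.203 and 0.155 for control pools 1 to 3. Whether the pools share RNA is not given in the labels and was not tested. Leaving out control pool 4 left 130 transcripts within the limits, 128 of them members, and leaving out control pool 4 and SDPP pool 1 together left 136, again with 128 members.

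The 36 members with pool 1 highest and pool 2 lowest that were measured on all 8 arrays spanned mean levels from -0.84 to 5.88. Their median values were 4.32, 0.96, 3.17 and 3.26 in control pools 1 to 4 and 2.01, 2.00, 1.98 and 2.12 in SDPP pools 1 to 4. Control pool 1 exceeded pool 2 by a median of 2.77, with a range of 2.06 to 6.07, but exceeded pool 3 by a median of 0.883 and pool 4 by 0.778. The SDPP medians thus lay between control pool 2 and control pools 3 and 4. A mean level of at least 4 was reached by 10 of the 36. In these 10, control pool 1 lay between 5.73 and 7.14, pool 2 between -0.08 and 4.32, pool 3 between 2.93 and 6.13 and pool 4 between 4.87 and 6.52. Their SDPP ranges ran from 0.0994 to 0.489.

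**Figure D3:**
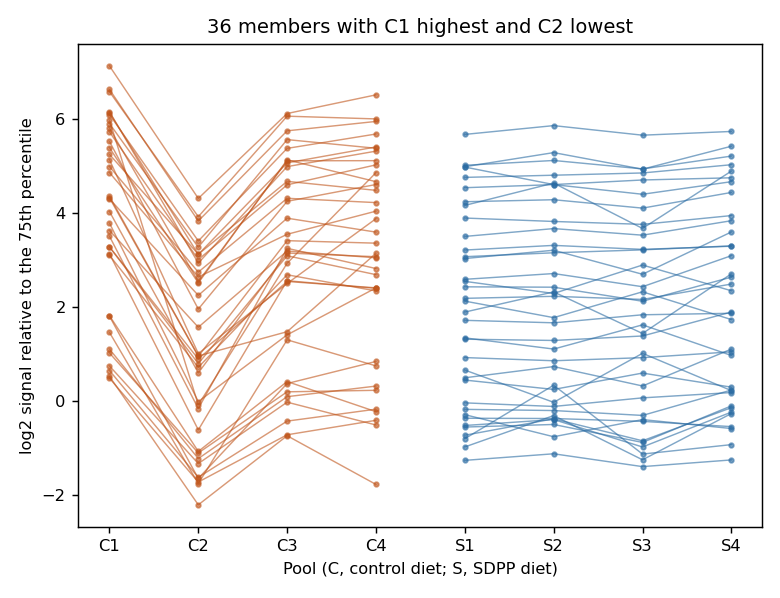
Log2 relative signal (y axis) of the 36 members measured on all 8 arrays with control pool 1 highest and pool 2 lowest, 1 line per member, in each pool (x axis; C, control diet in orange; S, SDPP diet in blue). Every line drops from C1 to C2 by 2.06 or more and most rise again to C3 and C4. The SDPP lines span a median of 0.480 and at most 1.47, where the selection requires less than 1.5.

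Single members show how far apart the control pools could be. Seabream_2006-01-03-CL3150Contig1, measured on all 8 arrays, had 5.99, -0.08, 2.93 and 4.87 in control pools 1 to 4 and 4.99, 5.29, 4.94 and 5.43 in SDPP pools 1 to 4. Control pool 2 was far below all other pools, control pool 3 was intermediate, and all SDPP pools lay inside the control range. Control pools averaged 3.43 ± 2.66 and SDPP pools 5.16 ± 0.24 (SD, n = 4), and the log2 difference of 1.74 with SE 1.14 did not pass the test (limma, Benjamini-Hochberg adjusted p = 0.277). Both of its other probes gave the same order, with control ranges of 6.54 and 6.24. Without control pool 2 the control range of Seabream_2006-01-03-CL3150Contig1 was 3.05.

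cDN04P0006F15.F.ab1 was low in another pool. It had 3.42, 3.96, -1.01 and 3.24 in control pools 1 to 4, and 4.07, 3.49, 4.23 and 3.15 in SDPP pools 1 to 4. Control pool 3 alone was low, and the other 7 pools overlapped between the diets. Without control pool 3 its control range fell to 0.723. The log2 difference between diets of 1.33 with SE 1.00 did not pass the test (limma adjusted p = 0.338). Its other 2 probes did not pass the background filter and did not follow the same course, so the low value of cDN04P0006F15.F.ab1 rests on 1 probe.

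Members with a single high control pool were fewer, with a median control range of 2.60 against 2.65 for those with a single low one. Seabream_2006-01-03-CL3763Contig1 had 1.82, -1.07, 0.41 and -0.23 in control pools 1 to 4 and -0.37, -0.37, -0.43 and -0.55 in SDPP pools 1 to 4. Control pool 1 was high, and all SDPP pools lay inside the control range. A second probe of Seabream_2006-01-03-CL3763Contig1 that passed the filter had a control range of 0.375 and correlated with the first at r = 0.484 over the 8 arrays. cDN04P0003L18.F.ab1 had 0.52, -2.21, -0.74 and -1.78 in control pools 1 to 4, and -0.80, 0.34, -1.13 and -0.93 in SDPP pools 1 to 4. Control pool 1 was the highest of its 8 values and SDPP pool 2 the next, so its SDPP range of 1.47 was close to the limit. The 2 copies of its probe differed most on the array of SDPP pool 2, with an SD of 0.757. Neither member differed between diets beyond the spread between pools (limma adjusted p = 0.364 and 0.617, with log2 differences of -0.66, SE 0.53, and 0.42, SE 0.59).

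The widest control range of any transcript tested belonged to cDN11P0002A04.F.ab1, which was chosen for mention after its values were seen. It had 5.62, -5.27, 3.44 and 4.46 in control pools 1 to 4, a range of 10.9, and 3.80, 4.10, 3.44 and 4.36 in SDPP pools 1 to 4. It was well above background on 7 arrays but not on that of control pool 2, so the value there is only a bound. Its 2 spots per array had an SD of at most 0.126, and no other probe of cDN11P0002A04.F.ab1 was printed. Without control pool 2 its control range was 2.18.

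The rule used the other probes of the same transcripts only in choosing the brightest, and their ranges were not used. The signal of these probes repeats the measurement in the same pools but not the pools themselves. Another probe was printed for 88 members, with 176 such probes, and none for 46. Of the 176, 106 passed the background filter, belonging to 58 members. Their control range had a median of 2.79, against 2.80 for the member probes beside them, and their SDPP range a median of 0.609. Both limits were met by 84 of the 106. The control range exceeded the SDPP range in 102, the same control pool was highest in 99, and the same was lowest in 99. The correlation with the member probe over the 8 arrays had a median of 0.992 and was at least 0.9 for 95 probes. By transcript, all other probes met both limits in 41 of the 58 members and none did in 9.

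**Figure D4:**
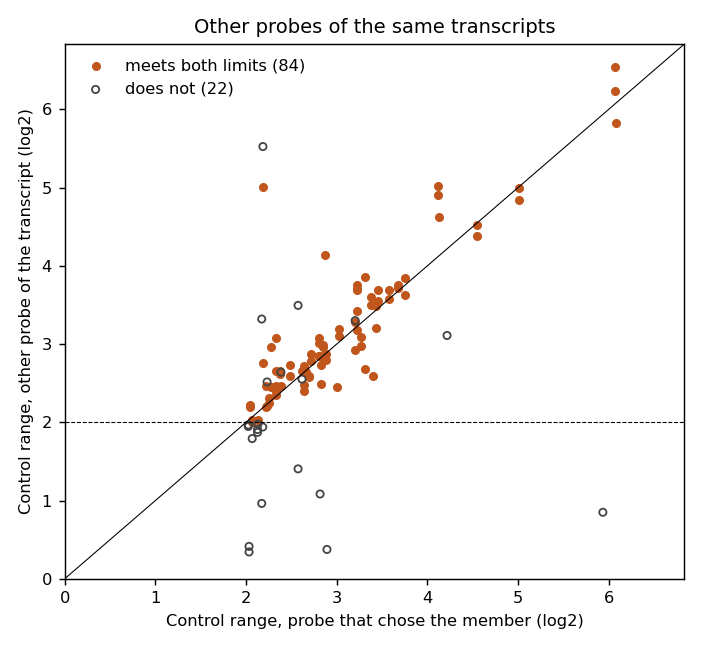
Control range of each of 106 other probes that passed the background filter (y axis, log2) against the control range of the member probe of the same transcript (x axis, log2), with the line of equality and the limit of 2. The 84 filled points met both limits and follow the line; the 22 open points did not, and some of them lie far below it.

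Spots printed in more than 1 copy agreed closely within an array. The 64 members whose probe was printed at least in 2 copies had a median SD between copies of 0.0851 on control arrays and 0.0879 on SDPP arrays. Over the same members, the SD between pools had a median of 1.08 for control and 0.332 for SDPP. Each copy taken alone kept a control range of at least 2 in 55 of the 64. Copies did disagree for some members, with an SD above 0.5 on at least 1 array in 23. The widest disagreement was an SD of 3.43 for cDN13P0003N15.F.ab1 on control pool 3.

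All 4 SDPP pools lay inside the control range for 64 members (47.8%), against 8.35% of all transcripts, a contrast that the choice of wide control and narrow SDPP ranges favours. The SDPP pools lay above all control pools for 16 members and below all of them for 10. Over all transcripts tested these shares were 18.8% and 11.5%. In the remaining 108 members the diets overlapped. The SDPP mean was below the lowest control pool in 28 members, in the lower part of the control range in 45, in the upper part in 37 and above the highest control pool in 24.

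Where control pool 2 alone was low, the SDPP pools mostly lay below the other 3 control pools as well. Of these 65 members, all 4 SDPP pools were below control pools 1, 3 and 4 in 53, above them in 3 and overlapping them in 9. Among the 38 of them measured on all 8 arrays the counts were 31, 0 and 7. Against all 4 control pools, the SDPP pools lay below in 10 of the 65 and above in 3. Over all transcripts tested these shares were 11.5% and 18.8%. The share of all transcripts with the SDPP pools below control pools 1, 3 and 4 is not given here. The SDPP mean was nearer to control pool 2 than to the mean of the other 3 in 42 of the 65. Where control pool 1 alone was low the SDPP mean was nearer to the other 3 pools in all 14 members, and where control pool 3 alone was low it was so in 12 of 14. These positions were counted after the members had been chosen on the control values, and no test was made of them.

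Fitted over all transcripts with limma, at a Benjamini-Hochberg adjusted p below 0.05, 33 of the 134 members were called different between diets, 12 higher and 21 lower on SDPP. That is 24.6% of the members, against 21.6% of all transcripts (13.3% higher and 8.32% lower), so the share over both directions together is near the background. By direction, the members' share called lower was above that of all transcripts, and their share called higher was below it. This difference by direction was not tested. The members' median absolute log2 difference was 1.04, against 0.353 over all transcripts, and their median SE was 0.519 against 0.178, which the rule itself widens. At an unadjusted p below 0.05, limma gave 58 members and 39.9% of all transcripts. All 21 members called lower were ones with control pool 2 alone low, and the 69 other members had 9 called higher and 0 called lower, with 25 of these 69 at an unadjusted p below 0.05 in either direction. The low pool was read from the same control values that enter the fit, so this division of the calls is a description only. All transcripts were not divided in the same way. Of the 68 members measured on all 8 arrays, 3 were called higher and 9 lower, or 17.6% in all. The share called among all transcripts measured on all 8 arrays is not given here.

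The count of calls depended on control pool 2 and on other single pools. Without control pool 2, limma called 73 members, 18 higher and 55 lower, including all 33 called with every pool, against 21.4% of all transcripts (12.9% higher and 8.48% lower). Leaving out that pool narrows the control values of these members by construction. Leaving out control pool 1, 3 or 4 gave 22, 17 and 13 members, and leaving out SDPP pool 1, 2, 3 or 4 gave 12, 11, 26 and 19. The share of all transcripts called on each of these omissions is not given here. Without control pool 4 and SDPP pool 1 together it was 0, with 38 members at an unadjusted p below 0.05, and 42 of all transcripts were called. Over all transcripts limma called 1460 with every pool and 1447 without control pool 2, so the rise on leaving out that pool was not seen there. On leaving out other single pools the count over all transcripts also moved, as given in the closing section.

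Of members called lower and measured on all 8 arrays, the 2 with the largest fitted decreases had control pool 2 between the other control pools and the SDPP pools or level with the latter. cDN05P0006G01.F.ab1 had 3.14, -0.62, 2.56 and 2.40 in control pools 1 to 4 and -0.98, -0.31, -1.25 and -0.27 in SDPP pools 1 to 4. Control pool 2 lay among the SDPP pools, and the other 3 control pools were above all of them. The value in SDPP pool 1 came from a single spot that the scanner software marked as an outlier, and without it the adjusted p in limma was 0.0764. The log2 difference of -2.57 with SE 0.75 passed the test (limma adjusted p = 0.0439), and it no longer did with pool number as a replicate block (adjusted p = 0.0742). Over 22 alternatives the call of cDN05P0006G01.F.ab1 was kept in 9. It was lost on leaving out any 1 pool other than control pool 2. Its 2 other probes had control ranges of 3.63 and 3.84 and followed the same course.

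cDN06P0001P17.F.ab1 had 3.28, 0.80, 3.09 and 2.69 in control pools 1 to 4 and -0.04, -0.12, 0.07 and 0.18 in SDPP pools 1 to 4. All SDPP pools lay below all control pools, with control pool 2 the nearest to them. Control pools averaged 2.47 ± 1.14 and SDPP pools 0.02 ± 0.13 (SD, n = 4). The log2 difference of -2.44 with SE 0.49 passed the test (limma adjusted p = 0.0144) and was kept in 19 of 22 alternatives, over which the adjusted p ran from 2.34e-05 to 0.722. Without control pool 2 the control range of cDN06P0001P17.F.ab1 was 0.591.

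Among members called higher, SCT750_C04_T3_JP5_2_C4_028.ab1 had the highest mean level of the 134, 5.97. Its values were 3.99, 6.04, 5.17 and 5.53 in control pools 1 to 4 and 6.71, 6.74, 6.69 and 6.88 in SDPP pools 1 to 4. All SDPP pools lay above all control pools, and control pool 1 was the low one. The log2 difference of 1.57 with SE 0.38 passed the test (limma adjusted p = 0.0260). The call of SCT750_C04_T3_JP5_2_C4_028.ab1 was kept in 14 of 22 alternatives and was lost, among other settings, without control pool 3 or 4 or SDPP pool 1, 2 or 4, at adjusted p from 0.0502 to 0.0674. Its other 2 probes had control ranges of 2.19 and 2.22 and correlated with it at r = 0.998 and 0.997.

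cDN02P0002F07.F.ab1 had 1.45, 1.42, 1.72 and -0.45 in control pools 1 to 4 and 3.09, 3.05, 2.85 and 2.24 in SDPP pools 1 to 4. All SDPP pools lay above all control pools, and control pool 4 alone was low. The log2 difference of 1.77 with SE 0.46 passed the test (limma adjusted p = 0.0320). Without control pool 4 the control range of cDN02P0002F07.F.ab1 was 0.303, with a log2 difference of 1.28. The call was kept in 16 of 22 alternatives and was lost, among other settings, without control pool 1 or SDPP pool 1 or 2, at adjusted p from 0.0569 to 0.0852. Its other 2 probes did not repeat the low value of control pool 4, with r = 0.0158 and 0.658 over the 8 arrays and control ranges of 3.32 and 0.964. The former probe, well above background on all 8 arrays, had an SDPP range of 3.07 and did not keep the diets apart. It had 1.15, 1.38, -1.94 and 1.29 in control pools 1 to 4 and -0.10, 1.62, 2.70 and -0.37 in SDPP pools 1 to 4. The latter probe of cDN02P0002F07.F.ab1 did have all SDPP pools, at 2.78, 2.74, 2.42 and 1.75, above all control pools, at 0.60, 1.059, 1.28 and 1.56.

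**Figure D5:**
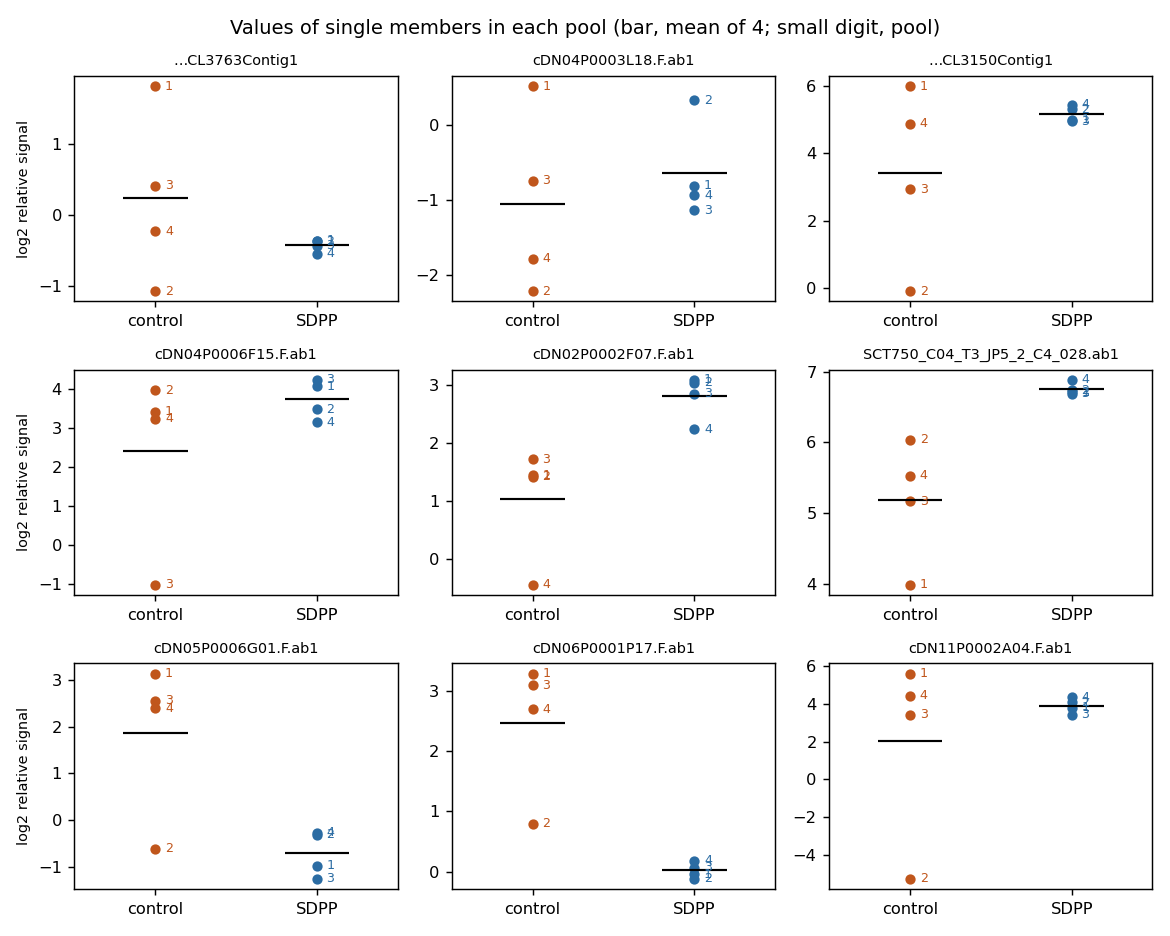
Log2 relative signal (y axis, own scale in each panel) of 9 members described in the text, in the 4 control pools (orange) and the 4 SDPP pools (blue), with the pool number beside each point and a bar at the mean of each diet. In most panels 1 control point lies far from the others, such as pool 2 at -0.08 in CL3150Contig1 and pool 3 at -1.01 in cDN04P0006F15.F.ab1, while the SDPP points lie close together.

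The arrays of control pools 1 and 2, the pair that differed most, shared their slides with an SDPP pool each. Slide 1 carried control pool 1 and SDPP pool 3, and slide 2 carried control pool 2 and SDPP pool 4. The other 4 arrays each lay on a slide that held no other array of this series. Across the members control pool 1 exceeded control pool 2 by a median of 2.13, whereas SDPP pool 3 was below SDPP pool 4, at a median difference of -0.19. Since the rule chose wide control and narrow SDPP ranges, the contrasts between diets on the 2 slides differ by the choice of members, and they are given as values only. SDPP minus control had a median of -1.43 on slide 1, with 43 of 134 members positive, and of 0.55 on slide 2, with 97 positive. The signs were opposite in 78 members (58.2%, against 43.3% of all transcripts). With slide as a fixed block limma called 0 members, with 28 at an unadjusted p below 0.05, in a fit with 1 residual degree of freedom. Control pool 2 was also the array with the lowest SD between copies of a probe, at 0.124 as a root mean square, against 0.211 to 0.218 on the other control arrays. The part of slide and array in the members' spread was not tested.

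The members were found at all signal levels. When all tested transcripts were ordered by mean level and divided into 4 equal parts, the members made up 2.43%, 2.19%, 1.07% and 2.25% from the dimmest part to the brightest. The opposite set fell steadily with signal over the same parts, at 12.02%, 6.16%, 4.38% and 2.19%. Among the brightest 5% of transcripts there were 12 members, 8.96% of the 134. By the prefix of the sequence name, members were 2.72% of the tested names that begin with cDN, 1.39% of those that begin with Contig, 1.36% of those that begin with Seabream and 3.38% of those that begin with SCT.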

How the data were processed

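Pooled RNA, labelled with Cy3, was hybridised to 1-colour arrays. The authors deposited spot intensities, written per the file headers by Agilent Feature Extraction 10.7.3.1, as background-subtracted processed signal on a linear scale, with flags for spots well above background, outliers and saturation. No spot was saturated. The deposited series table holds log2 values without scaling between arrays, which differ from the logged background-subtracted signal by at most 5e-09.

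From these, log2 processed signal was set relative to the array's 75th percentile, taken over 43803 non-control spots, and averaged over the spots of a probe, keeping outlier-flagged spots, as the selection rule does. The brightest of a name's probes stood for it. To pass as well above background on 1 array, a probe needed the flag on at least 50% of its spots there. Diets were compared with limma 3.58.1 under R 4.3.3, two-sided, by lmFit and eBayes, over 6754 transcripts with Benjamini-Hochberg adjustment, and array-level values with exact permutation tests. The fit was tested on simulated data in which both diets had the same spread. The members were chosen for unequal spread, so that test does not cover them. The members, the tests and the lists of markers were chosen with earlier results of these data known, and the marker lists could not be applied, because no name matched a gene.

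The members named in the text are, among those measured on all 8 arrays, the 2 widest in control range with 1 control pool high and the 2 with 1 low, and the 2 largest called differences in each direction. cDN11P0002A04.F.ab1, cDN13P0003N15.F.ab1 and the transcripts nearest the limits are named besides. Alternatives covered scaling, background correction, filters, limits, slide and pool blocks, variance models and leaving out each pool. A floor at the lowest signal well above background for the diet test, the check that every other probe of a member met the limits, and leaving out 2 pools together were added after seeing the data. Same-numbered pools did not deviate together, with correlations across transcripts from -0.0392 to 0.0497, so pool numbers were not taken as pairs.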

Additional observations from a re-analysis of the deposited data

Results flagged for a closer look

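Among 28 sets of 4 values, from the named members and the array-level measures, 3 held a pool whose gap to the nearest other pool, divided by the whole range of the 4, exceeded Dixon's 95% critical value for 4 samples. Chance gives about 1 in 20 sets. Control pool 3 stood apart in cDN04P0006F15.F.ab1, at -1.01 (gap over range 0.855), and control pool 4 in cDN02P0002F07.F.ab1, at -0.45 (0.860). Both members were chosen by their control values, so these gaps are given as a description only. The SD between copies of a probe on the array of control pool 2 was 0.124, far below the other control arrays (0.930). Over all 134 members, 8 had 1 control pool past the critical value and 6 had 1 SDPP pool past it, against 5.33% of all transcripts for the control pools. Of the 8, the far pool was control pool 2 in 4. No cause was tested for any of these.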

How the results depend on the processing

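The number of members, 134, stayed within 1.5 times under changes of scaling, background correction, outlier removal, floor, probe summary and SDPP limit, from 93 with an SDPP range under 1 to 149 with one under 2. Membership moved more than the number. With normexp 107 transcripts met the limits and 88 of them were members, and with the deposited values 96 of 123 were. Of the deposited values 22.6% are missing, and a transcript without a value in every pool was left out there. The number was 68 with the filter on all 8 arrays, 400 with no filter, 277 at a control range of at least 1.5 and 48 at 3. On leaving out 1 pool it ran from 65 to 162. The 68 members measured on all 8 arrays became 159 at a control range of 1.5 and 20 at 3, and 26 to 76 on leaving out 1 pool. The 68 with pool 1 highest and pool 2 lowest became 44 with normexp, 36 with the filter on all 8 arrays, 125 with no filter, 122 at 1.5 and 29 at 3, and 69 to 77 on leaving out 1 of the other pools. Filters and limits act by admitting fewer or more transcripts, and apart from that the cause was not tested.

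The filter on all 8 arrays kept only 68 of the members in the fit. Of these 16 were called, against 12 of the same 68 in the fit over all transcripts. The share of all transcripts called under that filter is not given here. The 33 members called became 94 with array weights, whose fit did not fully converge, and 1 with an unmoderated statistic that gives each diet its own spread. They became 0 with slide as a fixed block and 0 without control pool 4 and SDPP pool 1 (limma, 28 and 38 at an unadjusted p below 0.05). Leaving out 1 pool gave 11 to 73. A replicate block for pool number gave 28 members and 783 transcripts called by limma. The 1460 transcripts called in all became 814 with normexp, 0 with slide as a fixed block (435 at an unadjusted p below 0.05), 4293 with array weights, 456 with the unmoderated statistic and 42 without control pool 4 and SDPP pool 1 (1735 unadjusted), and 505 to 2121 on leaving out 1 pool. Their balance, 898 higher and 562 lower, turned to 579 and 792 where the 75th percentile was taken over probes measured on all 8 arrays, and moved to 1503 and 388 with median centring. Among the members the balance, 12 higher and 21 lower, became 11 and 22, and 18 and 20, in these settings. The log2 difference of cDN11P0002A04.F.ab1, not called, was 1.87 with all pools and -0.58 without control pool 2.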
